A study of Homo sapiens with 8 samples.

Results

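The comparison described here set the carcinoma-forming lines M3 and M4 against their precursor lines M1 and M2 in RNA-seq data from acini, the ball-like structures that mammary cells form in Matrigel. Each side held 4 libraries, 2 from each of 2 lines, so that all 8 libraries of the series entered the comparison. Of 16864 genes with enough counts to be tested, 3491 separated the sides, which means that the lowest of the 4 libraries on one side was above the highest of the 4 on the other. Of these, 1000 also passed the test between the sides (5.93% of those tested; 628 or 3.72% higher and 372 or 2.21% lower in M3 and M4), and these 1000 genes are the ones described.

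M1 is MCF10A, a spontaneously immortalized and non-tumorigenic human mammary epithelial line. M2 is MCF10AT1k.cl2, made from MCF10A by transfection with activated T24-HRAS and passage as a xenograft. Cells of M2 grafted into mice sometimes formed carcinomas, from which the lines M3 (MCF10Ca1h) and M4 (MCF10CA1a.cl1) were established, so both share the HRAS history of M2 while M1 lacks it. Every group is thus 1 established line (M2 and M4 are named as clones), cultured in duplicate for 8 to 10 days by the series' description (8 days in the study's methods) in medium with 2% horse serum, hydrocortisone, cholera toxin and insulin. M1 and M2 also received 10 ng/ml epidermal growth factor (EGF), which was omitted for M3 and M4, so line type and EGF cannot be told apart in any value below.

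EGF and its relatives are ligands that bind receptors of the ERBB family on the cell surface and, through RAS proteins and a cascade of kinases ending in ERK, switch on genes for growth, for the transcription factors of the FOS and ETS families and for the phosphatases and adaptors that damp the same cascade. MCF10A cells depend on added EGF for growth, and activated HRAS transmits part of the signal without it. In the breast, basal epithelial cells anchor the gland to its basement membrane through laminins and hemidesmosomes, while luminal cells face the duct and carry simple keratins.

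Library totals ran from 69669970 to 107350344 expected counts. The M2 replicates lay closer to each other than those of any other line, with a chi-square of counts per degree of freedom of 6.68 against 128 to 331 in M1, M3 and M4, so they were not within sampling noise and were kept as 2 libraries. A supplementary table of the study places the libraries labelled M1 replicate 2 and M2 replicate 1 in each other's line. Both lie on the precursor side, so the sides, the separation and the test between the sides were the same under either assignment, and only values for single lines of the precursor side depend on it. The first principal component held 46.5% of the variance and ran from -84.5 to -48.8 in the precursor libraries and from 19.5 to 104 in the carcinoma libraries. Markers of basal mammary epithelium were present throughout, with a summed level of 10209 to 17355 CPM (counts per 1000000 counts of the library after TMM scaling) on the precursor side and 12462 to 22486 on the carcinoma side. Summed markers of fibroblasts stayed at or below 74.0 CPM, with COL1A2 at 0 and DCN at up to 59.5 CPM, in M2 replicate 1. Those of blood cells stayed at or below 55.2 CPM, with CD3E at 0 and CD68 at up to 52.1 CPM, in M4 replicate 1. CD68 was higher in the carcinoma lines by the test described below (log2 fold change 2.26, SE 0.567, adjusted p = 0.0424). It did not separate the sides, as M3 replicate 2 lay inside the precursor range at 6.23 CPM. Markers of endothelium summed to at most 3.21 CPM and those of fat cells to at most 2.72 CPM, with ADIPOQ at 0.

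HRAS, the transfected gene, was measured at 154 and 139 CPM in M1 and 158 and 153 CPM in M2, and at 267 and 329 CPM in M3 and 339.9 and 354 CPM in M4. The M1 and M2 libraries overlapped, while all 4 carcinoma libraries were above all 4 precursor libraries (log2 fold change 1.09, SE 0.134, adjusted p = 0.00410). The counts do not tell the mutant allele from the normal one, so they show the total HRAS transcript. EGFR, the receptor of EGF, spanned 192 to 221 CPM on the precursor side and 195 to 315 on the carcinoma side, and the sides overlapped (log2 fold change 0.25, SE 0.162, adjusted p = 0.354).

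The test between the sides used 1 coefficient per side in edgeR, so differences between lines of one side counted as error, and a gene was called when its log2 fold change exceeded 1 in either direction and its Benjamini-Hochberg adjusted p was below 0.05. By this rule 1018 genes were called, 6.04% of those tested: 643 (3.81%) higher and 375 (2.22%) lower in the carcinoma lines. Separation alone was more frequent, at 11.2% of tested genes in the higher and 9.51% in the lower direction. Of the separating genes 964 of 1887 higher and 1061 of 1604 lower ones missed the adjusted p. Of the called genes 18 did not separate. The 628 genes that were both called and separating on the higher side had a median fold of 3.73, and the 372 on the lower side 4.15. The limit of separation passes through genes with little difference: just inside it, REEP3 had a lowest carcinoma value of 61.5 CPM against a highest precursor value that was also 61.5 CPM, and just outside it, SUMF1 had 40.2 CPM on each side of the limit.

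Libraries of 1 line are not separate lines, and p-values here measure the spread between these libraries. With 2 lines against 2 an exact two-sided permutation test over lines cannot go below p = 0.333. When the line was instead a random block in limma, 154 of the 1018 genes were called (104 higher and 50 lower, 0.913% of tested genes), and all 154 were among the 1000 separating genes. Leaving out each library in turn kept 350 of the 1018 calls in all 8 fits, 230 higher and 120 lower.

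**Figure D1:**
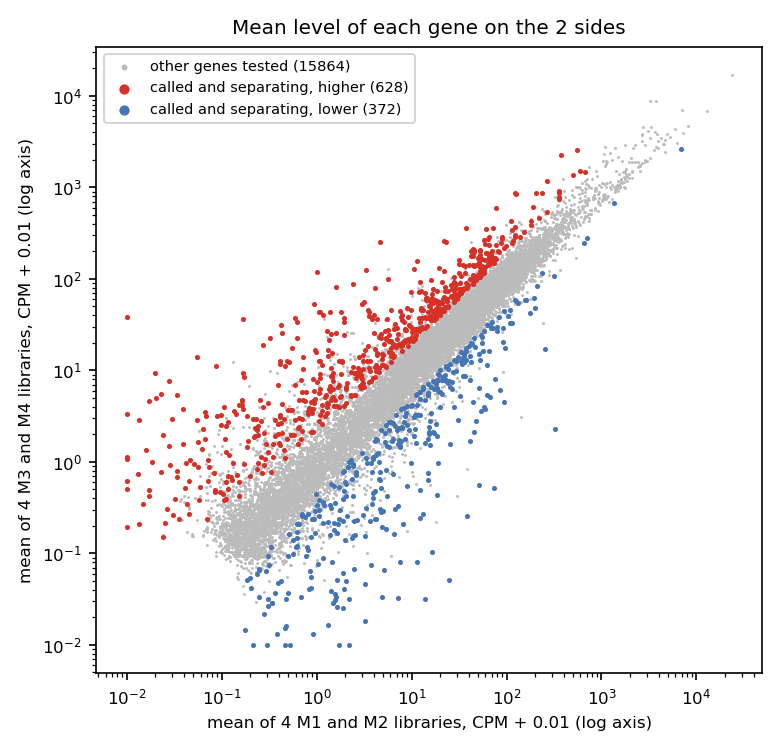
Each point is a gene tested, with its mean over the 4 M1 and M2 libraries on the x axis and over the 4 M3 and M4 libraries on the y axis, in CPM plus 0.01 on log axes. Red points are the 628 genes called and separating in the higher direction and blue points the 372 in the lower direction; both are found at all levels, and the widest gaps are among genes near 0 on one side.

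10 genes behaved as present on one side and absent on the other, with at least 100 counts in each library of one side and fewer than 10 in each library of the other. PRSS21, ZNF32, BMP7, APOBEC3F and ZNF605 were present in the carcinoma lines, and BTBD16, DAPL1, ZNF606, ZNF799 and ZNF44 in the precursor lines. Of these 10, 5 encode zinc finger proteins, a family of DNA-binding factors of which many, but not all, carry a KRAB repressor domain. The 16864 genes tested held 171 ZNF genes on chromosome 19 and 223 elsewhere.

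PRSS21 (chromosome 16, 2867181 to 2876305 on GRCh37, plus strand) encodes testisin, a membrane-anchored serine protease known from male germ cells. It had 0 counts in all 4 precursor libraries and 55.9 and 42.2 CPM in M3 and 28.5 and 25.2 CPM in M4. The carcinoma level was at least 1051-fold higher than a floor of 3 counts per library (log2 14.69, SE 0.656, adjusted p = 0.000868), and M3 lay above M4. ZNF32 (chromosome 10, 44139308 to 44144329, minus strand) had 4 counts in M2 replicate 1, none in the other precursor libraries and 620 to 983 counts in the carcinoma libraries. Its level was 10.3 and 11.3 CPM in M3 and 7.8 and 7.97 CPM in M4, a ratio of 790.0 with a 95% counting interval of 309 to 2899.6.

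BMP7, a secreted ligand of the bone morphogenetic protein family, had 8.1 and 12.1 CPM in M3 and 3.55 and 6.66 CPM in M4 and at most 0.0484 CPM in any precursor library (log2 8.61, SE 0.888, adjusted p = 0.00244). APOBEC3F, a cytidine deaminase that restricts retroviruses and mobile elements, was higher in M3 than in M4, with 8.19 and 8.27 CPM in M3 and 1.75 and 1.63 CPM in M4, and had at most 3 counts in any precursor library (log2 8.59, SE 1.04, adjusted p = 0.00410). ZNF605 had 3.35 and 5.35 CPM in M3 and 6.67 and 5.92 CPM in M4, against 8 counts in M1 replicate 1 and none in the other 3 precursor libraries (log2 7.71, SE 1.1, adjusted p = 0.00687). At their nearest libraries the sides lay 34.6-fold apart for ZNF605, 56.1-fold for APOBEC3F, 73.2-fold for BMP7 and 201-fold for ZNF32.

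On the other side, ZNF606 (chromosome 19, 58488444 to 58514717, minus strand) had 1.88 and 2.99 CPM in M1 and 1.95 and 1.96 CPM in M2 and no count in any carcinoma library. Its precursor level was at least 63.8-fold higher than the floor of 3 counts per library. ZNF44 and ZNF799, neighbours on chromosome 19 within 12335501 to 12512085, had 4.84 and 4.47 CPM in M1 and 5.64 and 4.38 CPM in M2 and 1.48 and 1.68 CPM in M1 and 1.62 and 1.47 CPM in M2, respectively, with no count in M3 and 3 to 6 counts in each M4 library. The precursor libraries lay close together for ZNF44 and ZNF799, in contrast to DAPL1, an epithelial death-associated protein homologue (chromosome 2, 159651829 to 159719293, plus strand), which had 13.1 and 37.6 CPM in M1 and 2.73 and 2.54 CPM in M2. DAPL1 was listed with 7 counts in M3 replicate 1 and none in the other carcinoma libraries. BTBD16 was higher in M2 than in M1, at 3.41 and 5.82 CPM in M1 and 9.25 and 10.1 CPM in M2, and was near 0 in the carcinoma lines, with at most 3 counts in a library.

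Their promoters differed in base composition. RefSeq promoter sequences (GRCh38.p14, 250 bases before to 50 bases after the start) were listed for 8 of the 10 genes, and 4 are shown, a pair from each direction, because they hold both the highest and the lowest ratio of CG dinucleotides among the 8. CG dinucleotides, the sites at which DNA can be methylated, are in capitals.
PRSS21 (chr16:2816987-2817286, plus strand): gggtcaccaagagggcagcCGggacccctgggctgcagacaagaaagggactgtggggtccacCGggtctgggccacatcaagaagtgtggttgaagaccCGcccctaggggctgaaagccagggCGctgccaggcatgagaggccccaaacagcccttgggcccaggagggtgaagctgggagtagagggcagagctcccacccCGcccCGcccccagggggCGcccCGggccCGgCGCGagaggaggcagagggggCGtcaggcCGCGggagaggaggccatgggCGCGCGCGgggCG
ZNF32 (chr10:43648832-43649131, minus strand): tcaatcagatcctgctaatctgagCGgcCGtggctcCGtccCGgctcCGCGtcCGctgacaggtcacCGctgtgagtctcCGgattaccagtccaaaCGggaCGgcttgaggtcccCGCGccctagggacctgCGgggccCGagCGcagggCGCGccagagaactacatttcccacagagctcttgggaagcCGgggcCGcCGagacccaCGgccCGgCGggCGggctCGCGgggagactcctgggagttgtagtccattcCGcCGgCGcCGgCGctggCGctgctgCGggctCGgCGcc
ZNF606 (chr19:58002771-58003070, minus strand): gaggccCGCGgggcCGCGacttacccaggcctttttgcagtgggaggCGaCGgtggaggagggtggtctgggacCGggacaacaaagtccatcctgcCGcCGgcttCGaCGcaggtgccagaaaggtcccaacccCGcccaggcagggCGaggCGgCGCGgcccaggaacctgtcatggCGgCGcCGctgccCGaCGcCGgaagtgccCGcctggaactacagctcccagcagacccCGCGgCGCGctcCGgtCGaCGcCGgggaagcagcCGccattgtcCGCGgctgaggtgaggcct
DAPL1 (chr2:158795067-158795366, plus strand): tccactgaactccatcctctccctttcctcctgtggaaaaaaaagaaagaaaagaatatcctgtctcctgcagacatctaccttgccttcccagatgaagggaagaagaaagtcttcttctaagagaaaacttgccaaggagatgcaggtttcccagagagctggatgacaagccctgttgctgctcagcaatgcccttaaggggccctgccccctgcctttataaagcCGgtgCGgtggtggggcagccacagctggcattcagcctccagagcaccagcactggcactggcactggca
These promoters held 19 CG dinucleotides in PRSS21, 36 in ZNF32, 34 in ZNF606 and 2 in DAPL1. The observed number of CG against that expected from the content of C and G was 0.497, 0.961, 0.876 and 0.0958, respectively, and 48.9% of the 27305 promoters of the same length in the table were above 0.6. All 5 zinc finger genes were above 0.6 (ZNF605 0.921, ZNF44 0.667 and ZNF799 0.629), while PRSS21, DAPL1 and BTBD16 (0.121) were below. Methylation was not measured in these libraries.

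Among the 24 genes with the largest changes and at least 100 counts in each library of the higher side, 21 kept their call whichever library was left out, and 15 kept it with the line as a random block. Higher in the carcinoma lines, besides the genes above, were TRPM2, a calcium channel opened by oxidative stress, and PDE1C, a phosphodiesterase that breaks down cyclic nucleotides. PDE1C had 0.145 and 0.183 CPM in M1 and 0.194 and 0.113 CPM in M2, and 46.5 and 27 CPM in M3 and 46.7 and 27.1 CPM in M4. Replicates of M3 and M4 differed in the same proportion, yet the sides were 139-fold apart at their nearest libraries (log2 fold change 7.83, SE 0.339, adjusted p = 3.69e-05). TRPM2 had at most 0.133 CPM in a precursor library and 6.01 and 11.8 CPM in M3 and 19.6 and 18.2 CPM in M4, so that M4 was above M3 (log2 8.18, SE 0.983, adjusted p = 0.00410).

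BST2, an interferon-inducible membrane protein that tethers virus particles, had 0.69 and 1.96 CPM in M1 and 0.641 and 0.694 CPM in M2. It reached 104 and 76.3 CPM in M3 and 166 and 125 CPM in M4, and its fold change was among the steadiest of the large ones (log2 fold change 6.88, SE 0.497, adjusted p = 0.000602, adjusted p = 0.00339 with the line as a random block). SERPINB2, an inhibitor of urokinase, was less even: it had 1.19 and 0.134 CPM in M1 and 0.155 and 0.184 CPM in M2 against 3.53 and 12.4 CPM in M3 and 77.4 and 33.4 CPM in M4. The lowest carcinoma library was 2.97 times the highest precursor library, and the call (log2 6.25, SE 1.18, adjusted p = 0.0180) was lost without M1 replicate 2, M2 replicate 1 or M2 replicate 2. LINC00973, an intergenic RNA on chromosome 3, had no count in M1, 0.738 and 0.326 CPM in M2 and 10.2 and 12.7 CPM in M3 and 29.7 and 22.8 CPM in M4 (log2 6.12, SE 1.25, adjusted p = 0.0230); its call was lost without M2 replicate 2 or either M4 library.

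Among the genes with the largest changes in the lower direction, MAOA, a mitochondrial enzyme that oxidizes monoamines, was at 825 and 232 CPM in M1 and 111 and 112 CPM in M2 and at 5.63 and 1.2 CPM in M3 and 1.2 and 1.18 CPM in M4. The 4 precursor libraries spanned 111 to 825 CPM, and the lowest of them lay 19.7 times above the highest carcinoma library (log2 -7.12, SE 1.0, adjusted p = 0.00638). CD36, a fatty acid transporter and scavenger receptor, had 141 and 72.5 CPM in M1 and 42.3 and 41 CPM in M2, against 1.04 and 0.277 CPM in M3 and 0.0983 and 0.63 CPM in M4 (log2 -7.20, SE 0.803, adjusted p = 0.00300). SELENOP, a secreted selenium carrier, had 74.9 and 48.4 CPM in M1 and 15.3 and 16 CPM in M2 and at most 0.413 CPM in a carcinoma library (log2 -7.27, SE 0.834, adjusted p = 0.00344).

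TENT5B, a poly(A) polymerase, SNCAIP, a synuclein-binding protein, and SEMA6D, a semaphorin, were also highest in M1 and lowest in M3 and M4. SNCAIP had 18 and 23 CPM in M1 and 2.35 and 2.13 CPM in M2 and at most 0.173 CPM in a carcinoma library, and SEMA6D had 18.4 and 8.71 CPM in M1 and 1.54 and 1.5 CPM in M2 and at most 0.139 CPM. Both lost their call with the line as a random block (adjusted p = 0.125 and 0.138), as did DAPL1, TENT5B and TP73 (adjusted p = 0.122, 0.0798 and 0.0636). TENT5B had 122 and 33.7 CPM in M1 and 25.5 and 23.4 CPM in M2, with 0.334 to 0.924 CPM in the carcinoma libraries (log2 -6.53, SE 0.714, adjusted p = 0.00300). TP73, a transcription factor known from multiciliated and basal cell programs, had 5.16 and 17.6 CPM in M1 and 13.2 and 13.1 CPM in M2, against 0.263 and 0.473 CPM in M3 and 0.0804 and 0.129 CPM in M4 (log2 -5.69, SE 0.657, adjusted p = 0.00346).

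**Figure D2:**
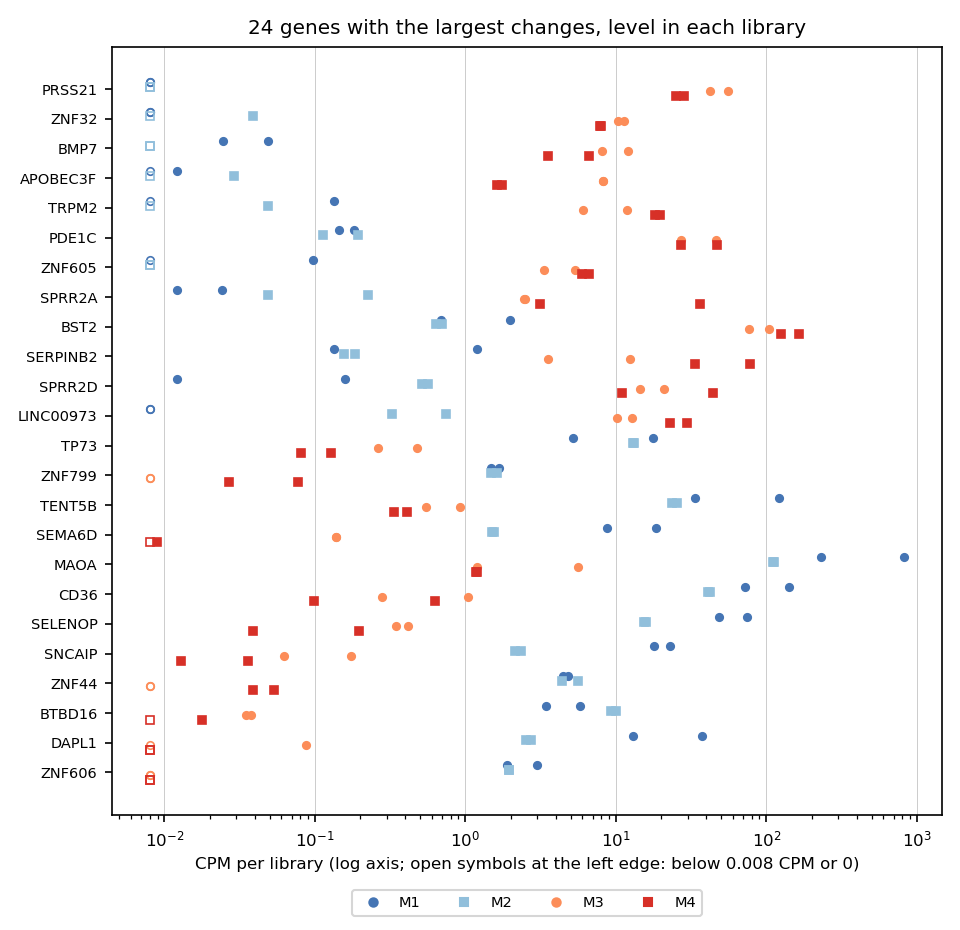
Each row is one of the 24 genes with the largest changes and each symbol a library, placed by its CPM on a log axis (M1 dark blue circles, M2 light blue squares, M3 orange circles, M4 red squares; open symbols at the left edge are at 0). In every row the blue and the red or orange symbols do not overlap; MAOA, CD36 and SELENOP lie lower in M2 than in M1 and far lower in M3 and M4.

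PDE1C and BTBD16, already described, were also among the genes with the smallest p in their direction; the others of that kind had smaller folds. ISYNA1, which makes inositol phosphate from glucose phosphate, had 1.04 and 1.1 CPM in M1 and 0.709 and 1.02 CPM in M2 and 17.2 and 13 CPM in M3 and 16.6 and 17.4 CPM in M4 (log2 fold change 4.05, SE 0.235, adjusted p = 0.000227). SYCP2, a component of the synaptonemal complex of meiosis, had 0.872 and 1.17 CPM in M1 and 1.61 and 1.5 CPM in M2 and 22 and 27.6 CPM in M3 and 24.8 and 33.3 CPM in M4 (log2 fold change 4.38, SE 0.263, adjusted p = 0.000227). ANKRD6, an ankyrin repeat protein of WNT signalling, had 0.255 to 0.586 CPM in the precursor and 10.8 to 14.8 CPM in the carcinoma libraries (log2 fold change 5.0, SE 0.33, adjusted p = 0.000399). All of these kept their call with the line as a random block, each at adjusted p = 0.00339.

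In the lower direction CYP4X1, an orphan cytochrome P450, fell from 47.7 and 60 CPM in M1 and 28.2 and 27.9 CPM in M2, to 2.09 and 1.63 CPM in M3 and 1.26 and 1.68 CPM in M4 (log2 fold change -4.62, SE 0.326, adjusted p = 0.000568). ZNF436, another zinc finger gene, was even on both sides, with 53.4 to 62.2 CPM in the precursor and 14.1 to 18.7 CPM in the carcinoma libraries (log2 fold change -1.80, SE 0.141, adjusted p = 0.000859). VAV3, an exchange factor that activates RAC GTPases, was at 76 to 107 CPM and at 15.5 to 25.3 CPM (log2 fold change -2.16, SE 0.212, adjusted p = 0.00210). These genes, too, kept their call with the line as a random block, at adjusted p = 0.00547, 0.00718 and 0.0209, respectively.

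Keratins were among the most abundant called genes, by CPM and not per length. KRT6B, a keratin of activated basal cells, was higher in M2 than in M1 as well, with 196 and 343 CPM in M1 and 839 and 846 CPM in M2, and 2593 and 2747 CPM in M3 and 2469 and 2478 CPM in M4 (log2 fold change 2.21, SE 0.441, adjusted p = 0.0210). KRT18, a simple keratin (log2 1.43, SE 0.277, adjusted p = 0.0196), and S100A16, a calcium-binding protein (log2 1.14, SE 0.206, adjusted p = 0.0151), were also among the most abundant. S100A16 kept its call without any 1 library, KRT6B did not without M1 replicate 2 or M4 replicate 2, and KRT18 did not without either M1 library.

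Lower and abundant were the mitochondrial rRNA MT-RNR2, ASS1, FKBP5 and the ribosomal protein gene RPL28. MT-RNR2 had 7115 and 9310.4 CPM in M1 and 5582 and 5599.8 CPM in M2, and 2696 and 2314 CPM in M3 and 2495 and 3097 CPM in M4 (log2 fold change -1.38, SE 0.226, adjusted p = 0.0111). Of 16 mitochondrially encoded genes tested, 10 separated in the lower direction (62.5%, against 9.51% of all genes) and 1 was called; poly A selection retains these RNAs in part only. ASS1, which joins citrulline and aspartate on the way to arginine, had 808 and 813 CPM in M1 and 611 and 592 CPM in M2, and 398 and 316 CPM in M3 and 185 and 230.2 CPM in M4 (log2 fold change -1.32, SE 0.254, adjusted p = 0.0190). FKBP5, a chaperone induced by glucocorticoids, had 453 to 917 CPM in the precursor and 131 to 386 CPM in the carcinoma libraries (log2 fold change -1.39, SE 0.351, adjusted p = 0.0438). RPL28 spanned 1107 to 1652 CPM and 515 to 973 CPM (log2 fold change -1.01, SE 0.247, adjusted p = 0.0391). The calls of FKBP5 and RPL28 held in 1 of the 8 fits without a library, the one without M3 replicate 1, and ended in the other 7.

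Of the 1000 genes, 81 of the higher and 67 of the lower ones were not listed as protein coding. They were 4.28% of the 3459 such genes tested, beside 6.36% of protein-coding and 5.93% of all genes. Genes that release 44 of GENCODE does not list have no class here and were counted among the 3459. Besides LINC00973, the largest higher changes with at least 100 counts in each carcinoma library were in ZFPM2-AS1 (log2 4.62, SE 1.04, adjusted p = 0.0312) and in ENSG00000269640 and ENSG00000228991 (log2 4.93 and 4.55), which release 44 of GENCODE does not list. The largest lower changes were in ENSG00000260581 on chromosome 5 (log2 -4.06), ENSG00000250041 on chromosome 11 (log2 -2.61), TRMT61A-DT (log2 -2.58) and FAM225B (log2 -2.31). FAM225B had 2.94 and 5.22 CPM in M1 and 3.38 and 3.85 CPM in M2, and 0.926 and 0.878 CPM in M3 and 0.545 and 0.746 CPM in M4. Strand use in counting was not stated, so the antisense ZFPM2-AS1 and the divergent TRMT61A-DT cannot be told apart from reads of their partners where they overlap; the call of TRMT61A-DT ended whichever library was left out.

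Of 10 EGF-family ligand genes tested, 4 were called, all higher in the lines grown without EGF (EREG, HBEGF, NRG1 and TGFA). Over all genes tested, 3.81% were called higher and 2.22% lower, and 11.2% and 9.51% separated in these directions. The median log2 fold change over the list was 1.1 against 0.02 over all genes tested. EREG, which encodes epiregulin, stood at 0.751 and 0.769 CPM in M1 and 7.12 and 7.84 CPM in M2. It reached 47.4 and 88.1 CPM in M3 and 80.3 and 100.5 CPM in M4, the largest change among the ligands (log2 fold change 4.26, SE 0.826, adjusted p = 0.0196). TGFA, which encodes transforming growth factor alpha, had 21.5 and 12.1 CPM in M1 and 23 and 20.9 CPM in M2, and 169 and 130.2 CPM in M3 and 102 and 125 CPM in M4 (log2 fold change 2.76, SE 0.243, adjusted p = 0.00129).

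The precursor lines overlapped for TGFA, while EREG was higher in M2 than in M1. HBEGF, which encodes a heparin-binding ligand, had 5.23 and 8.35 CPM in M1 and 14.2 and 14.9 CPM in M2, and 23.2 and 42.1 CPM in M3 and 221 and 221 CPM in M4, so that M4 was highest. Its call (log2 fold change 3.57, SE 0.764, adjusted p = 0.0264) was lost in 6 of the 8 fits without a library, those without an M3 library being the exceptions. NRG1, a ligand of ERBB3 and ERBB4, had 0.702 to 1.36 CPM in the precursor and 6.57 to 22 CPM in the carcinoma libraries (log2 fold change 3.34, SE 0.451, adjusted p = 0.00580). EREG and TGFA kept their call with the line as a random block (adjusted p = 0.0320 and 0.0146). AREG (log2 1.19), EGF (0.74), NRG4 (-0.06) and EPGN (-0.12), with BTC and NRG2, were not called. Of 11 ERBB receptors and inhibitors tested, edgeR called 0, DESeq2 0 and an unadjusted p under 0.05 1, with a median of -0.26.

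Of 20 genes known as output or feedback of ERK signalling, 11 were called, all higher (median log2 1.44), beside 3.81% of all genes. Of these calls 7 held whichever library was left out and 2 with the line as a random block (FOSL1 and MAFF). DUSP5, a nuclear ERK phosphatase, had 3.84 and 3.56 CPM in M1 and 8.41 and 8.29 CPM in M2, and 22.6 and 23.1 CPM in M3 and 60.2 and 77.2 CPM in M4 (log2 fold change 2.93, SE 0.508, adjusted p = 0.0138). FOSL1, which encodes the AP-1 factor FRA1, showed the same order of lines, with 10.6 and 15.4 CPM in M1 and 30.6 and 31.2 CPM in M2, and 75.5 and 87.1 CPM in M3 and 169 and 159 CPM in M4 (log2 fold change 2.48, SE 0.42, adjusted p = 0.0126).

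MAFF, a small MAF transcription factor, was flat across the precursor lines at 8.04 to 9.83 CPM and had 44.4 and 32 CPM in M3 and 66 and 49 CPM in M4 (log2 fold change 2.41, SE 0.222, adjusted p = 0.00154). SPRY4, a Sprouty inhibitor of RAS signalling, had 6.74 and 8.63 CPM in M1 and 11.9 and 12.4 CPM in M2, and 21.1 and 44.3 CPM in M3 and 43.4 and 73.1 CPM in M4 (log2 fold change 2.20, SE 0.367, adjusted p = 0.0121), with M3 and M4 overlapping. CCND1, the D-type cyclin of the G1 phase, had 61.4 to 78.5 CPM against 122 to 176 CPM (log2 fold change 1.08, SE 0.15, adjusted p = 0.00606). SPRED2, ETV4, ETV5, EPHA2, IER3 and DUSP4 were the others called, with log2 fold changes of 1.15 to 2.12. EGR1 (-0.26), SPRY1 (-0.34), SPRED3 (-0.52) and EPHA4 (-1.35) had values of the other sign and were not called. HRAS itself was higher on the same side, and EGF was absent from the medium of that side; their parts in these values cannot be told apart.

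**Figure D3:**
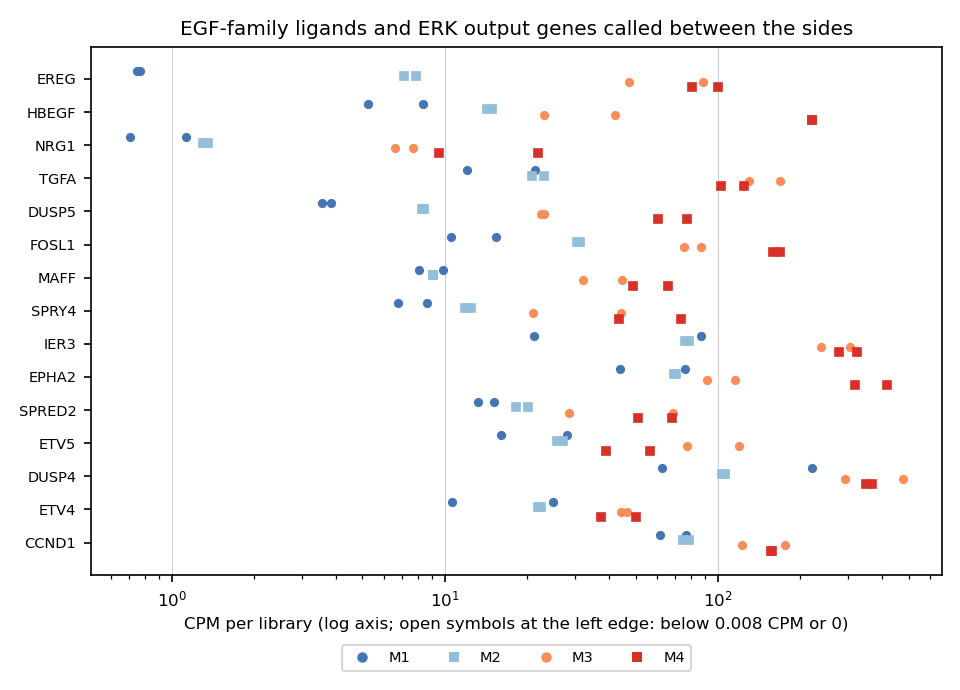
The 4 EGF-family ligands (top) and the 11 ERK output genes called between the sides, with each library placed by its CPM on a log axis and lines coloured as in the plot of the 24 genes. For every gene the 4 carcinoma libraries lie to the right of the 4 precursor libraries; EREG, DUSP5, FOSL1 and SPRY4 also lie further right in M2 than in M1.

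Of 24 genes of cholesterol synthesis and uptake tested, 8 were called, all higher, and 15 separated in that direction. Over all genes 3.81% were called higher and 11.2% separated in the higher direction. All 24 had a positive log2 fold change (median 1.43), as did 8640 of the 16864 genes tested. HMGCS1, the first committed enzyme of the pathway, had 81.9 and 51.5 CPM in M1 and 182 and 182 CPM in M2, and 210.1 and 308 CPM in M3 and 1249 and 1639 CPM in M4 (log2 fold change 2.77, SE 0.721, adjusted p = 0.0468). HSD17B7, a late enzyme, had 11.7 and 9.05 CPM in M1 and 13.8 and 15.2 CPM in M2, and 31.6 and 31.5 CPM in M3 and 60.7 and 69.1 CPM in M4 (log2 fold change 1.96, SE 0.308, adjusted p = 0.00993). M4 was above M3 for both genes.

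INSIG1, a sterol sensor, MVD, FDPS, CYP51A1 and STARD4 were among the genes called, with log2 fold changes of 1.63 to 2.31. HSD17B7 was the one gene of the list to keep its call whichever library was left out, and with the line as a random block (adjusted p = 0.0481; 0.0609 to 0.168 for the other 7).

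Of 28 interferon-stimulated genes tested, 4 were called (BST2, OAS2, RSAD2 and ISG20, all higher) and 7 separated in the higher direction, with a median of 1.34. The shares over all genes were 3.81% called higher and 11.2% separating in that direction. With the line as a random block BST2 kept its call, and OAS2, RSAD2 and ISG20 lost it (adjusted p = 0.300, 0.293 and 0.156). OAS2, which makes the signal that activates RNase L, had 0.0605 to 0.204 CPM in the precursor libraries and 13 and 7.04 CPM in M3 and 16.4 and 1.09 CPM in M4 (log2 fold change 5.87, SE 0.852, adjusted p = 0.00717). RSAD2, an antiviral radical SAM enzyme, had 1 count in all precursor libraries together and 0.175 and 0.127 CPM in M3 and 10.8 and 0.45 CPM in M4.

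For both genes M4 replicate 1 lay far above M4 replicate 2, and the call of RSAD2 held in 4 of the 8 fits without a library. MX1 (-0.41) and IFITM3 (-1.11), also of this list, were not called. Of 16 genes of MHC class I presentation 2 were called higher, beside 3.81% of all genes. They were HLA-B (log2 1.61, SE 0.288, adjusted p = 0.0151), whose reads can be shared with other HLA genes, and PSMB9 (log2 1.25, SE 0.305, adjusted p = 0.0391). In both, M4 replicate 1 was highest, and neither kept the call with the line as a random block.

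Of 23 chemokine and interleukin genes 8 were called higher and 1 lower, beside 3.81% and 2.22% of all genes (median of the list 1.85). With the line as a random block CXCL8 and LIF kept their call (adjusted p = 0.0236 and 0.0481), and the other 7 were at adjusted p = 0.0678 to 0.261. CXCL8, a chemokine for neutrophils, had 1.11 and 1.95 CPM in M1 and 5.58 and 4.7 CPM in M2, and 75.3 and 62.2 CPM in M3 and 231 and 136 CPM in M4 (log2 fold change 5.24, SE 0.661, adjusted p = 0.00465). IL1B had 0.836 and 0.427 CPM in M1 and 0.534 and 0.539 CPM in M2, and 13.6 and 8.9 CPM in M3 and 93 and 33.7 CPM in M4 (log2 fold change 5.99, SE 0.809, adjusted p = 0.00580). IL1A, its neighbour on chromosome 2, had 0.378 to 5.24 CPM in the precursor and 33.5 to 95.9 CPM in the carcinoma libraries (log2 fold change 4.14, SE 0.729, adjusted p = 0.0141).

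LIF (log2 4.14), IL24 (4.91), CSF2 (4.69), CXCL1 (2.59) and IL32 (2.09) were the others called higher, IL33, an alarmin held in the nucleus, was called lower (-3.71), and CXCL14 was at -5.73 without a call. Of the 9 calls, 5 (CXCL8, IL1A, IL1B, IL33 and LIF) held whichever library was left out. The inflammasome genes did not follow IL1B: of 17 tested, IL1B was the one called higher, and CASP1, the protease that matures it, was called lower, with 40.8 and 150.3 CPM in M1 and 118 and 121 CPM in M2, and 35.3 and 37.6 CPM in M3 and 39.9 and 20.7 CPM in M4 (log2 fold change -1.69, SE 0.379, adjusted p = 0.0309). The nearest libraries of the sides were 1.02-fold apart for CASP1, its call held in 2 of the 8 fits without a library, and it was lost with the line as a random block (adjusted p = 0.314).

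Of the subunits of laminins, the basement membrane ligands of basal epithelial cells, LAMB3 and LAMA3 rose. LAMB3 had 183 and 319.7 CPM in M1 and 277 and 283 CPM in M2, and 751 and 811 CPM in M3 and 1596 and 1564 CPM in M4 (log2 fold change 2.15, SE 0.312, adjusted p = 0.00717). LAMA3 had 98.4 and 134 CPM in M1 and 294 and 291 CPM in M2, and 741 and 1069.7 CPM in M3 and 794 and 874 CPM in M4 (log2 fold change 2.09, SE 0.365, adjusted p = 0.0140). Both were called in every fit without a library and with the line as a random block (adjusted p = 0.0395 for LAMB3 and 0.0457 for LAMA3).

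Of 20 genes of basal epithelium and hemidesmosomes 5 were called, all higher (LAMA3, LAMB3, KRT6B and the integrin ITGA3 among them), beside 3.81% of all genes. KRT5 (-0.83), KRT15 (-0.94) and TP63 (-0.90) had negative values without a call. Of 15 luminal genes tested 6 were called, beside 6.04% of all genes. KRT7, KRT18, EPCAM and CLDN7 were called higher (log2 1.34 to 2.02), and MUC1 and GATA3 lower. With the line as a random block MUC1 and GATA3 kept their call (adjusted p = 0.0274 and 0.0365), and the 4 higher genes were at adjusted p = 0.0917 to 0.227. The call of CLDN7 held in 1 of the 8 fits without a library. MUC1, a mucin of the luminal surface, had 56.6 and 32.2 CPM in M1 and 73.8 and 73.7 CPM in M2, and 6.3 and 5.83 CPM in M3 and 1.8 and 1.0 CPM in M4 (log2 fold change -3.98, SE 0.614, adjusted p = 0.00919). GATA3, a transcription factor of luminal fate, had 74.9 and 98.5 CPM in M1 and 42.4 and 44.2 CPM in M2, and 17.9 and 15.5 CPM in M3 and 14.9 and 16.6 CPM in M4 (log2 fold change -2.0, SE 0.278, adjusted p = 0.00606).

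Of 16 squamous genes tested, SPRR2A, SPRR2D, SPRR2E and LCE3D were called higher and KRT10 and CALML5 lower, beside 3.81% and 2.22% of all genes. SPRR2D, a small proline-rich protein of the cornified envelope, had 0.157 and 0.0122 CPM in M1 and 0.515 and 0.567 CPM in M2, and 14.4 and 21 CPM in M3 and 44.1 and 11 CPM in M4 (log2 fold change 6.17, SE 0.922, adjusted p = 0.00815). SPRR2A had 2.45 to 3.15 CPM in 3 of the carcinoma libraries and 36.3 CPM in M4 replicate 1, against at most 0.227 CPM on the precursor side. The SPRR2 genes are near-identical copies that can share reads, so their separate values are uncertain, and none of the 6 kept its call with the line as a random block. KRT10, a keratin of differentiating keratinocytes, had 838 and 96.9 CPM in M1 and 43.5 and 44.2 CPM in M2, and 18.9 and 16 CPM in M3 and 17.5 and 16.1 CPM in M4 (log2 fold change -3.90, SE 0.99, adjusted p = 0.0440); without M1 replicate 2, either M3 library or either M4 library it was not called.

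THBS1, an adhesive matrix protein and activator of latent TGF-beta, had 75.9 and 146 CPM in M1 and 135 and 129.6 CPM in M2, and 591 and 1249 CPM in M3 and 872 and 802 CPM in M4 (log2 fold change 2.85, SE 0.292, adjusted p = 0.00238). COL4A5 and COL4A6, neighbouring basement membrane collagen genes on chromosome X, were lower (log2 -1.40, SE 0.194, adjusted p = 0.00595 and log2 -1.75, SE 0.221, adjusted p = 0.00454). PLAUR, the urokinase receptor, had 8.79 and 10.9 CPM in M1 and 23.4 and 24.1 CPM in M2, and 80.6 and 65.2 CPM in M3 and 87.2 and 76.9 CPM in M4 (log2 fold change 2.21, SE 0.336, adjusted p = 0.00892).

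TIMP2, a metalloproteinase inhibitor, had 14.8 to 17.5 CPM against 32.2 to 39.4 CPM (log2 fold change 1.18, SE 0.131, adjusted p = 0.00300), and MMP13, a collagenase, was lower (log2 -5.33, SE 1.02, adjusted p = 0.0189). With the line as a random block THBS1, COL4A6, PLAUR and TIMP2 kept their call, and COL4A5 and MMP13 lost it (adjusted p = 0.0774 and 0.135). DCN, which encodes the proteoglycan decorin, was called without separating, at 34.1 and 1.62 CPM in M1 and 59.5 and 58.5 CPM in M2, and 1.0 and 2.12 CPM in M3 and 0.17 and 0.0129 CPM in M4. M1 replicate 2 lay inside the range of M3, and leaving out any one of 6 other libraries ended the call. Of 19 mesenchymal genes tested, FAP was the one called (log2 2.38), beside 6.04% of all genes. Its call held in 1 of the 8 fits without a library, and VIM (0.91), ZEB1 (-0.19) and CDH2 (0.26) were not called.

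Of 26 genes of TGF-beta, activin and BMP signalling 6 were called higher and 3 lower, beside 3.81% and 2.22% of all genes. With the line as a random block BMP7 and NOG kept their call (adjusted p = 0.0242 and 0.0442), and the other 7 were at adjusted p = 0.108 to 0.334. Among the ligands, BMP7 and INHBA, the subunit of activin A, were higher and TGFB1 and TGFB3 lower (log2 -1.54 and -1.36). INHBA had 3.14 and 4.7 CPM in M1 and 18.8 and 19.4 CPM in M2, and 40.6 and 49.6 CPM in M3 and 241 and 303 CPM in M4 (log2 fold change 3.78, SE 0.876, adjusted p = 0.0337). The antagonists FST, FSTL3 and NOG were higher (log2 4.59, 1.73 and 2.10), and ID3, a target of BMP signals, was lower (-1.33). BMP7 and NOG kept their calls in all fits without a library, INHBA in 2 and FST in 3 of 8.

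Of 24 WNT and Notch genes tested 3 were called higher and 3 lower, beside 3.81% and 2.22% of all genes. With the line as a random block WNT10A kept its call (adjusted p = 0.0264), and the other 5 were at adjusted p = 0.0917 to 0.168. WNT9A (log2 3.32, SE 0.555, adjusted p = 0.0121) and WNT7A (log2 2.91, SE 0.649, adjusted p = 0.0304) were higher, and WNT4 and WNT10A were lower. WNT10A had 4.18 and 4.75 CPM in M1 and 3.33 and 3.47 CPM in M2, and 0.701 and 0.543 CPM in M3 and 0.143 and 0.18 CPM in M4 (log2 fold change -3.33, SE 0.548, adjusted p = 0.0115). WNT4 had 5.64 and 2.32 CPM in M1 and 1.09 and 0.666 CPM in M2, and 0.138 and 0.0577 CPM in M3 and 0.116 and 0.27 CPM in M4 (log2 -4.06, SE 0.79, adjusted p = 0.0198). JAG1, a Notch ligand, was called higher (1.08) and HEY1, a Notch target, lower (-1.78).

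Of 21 genes of apoptosis, growth arrest and their regulators tested, 3 were called higher and 2 lower, beside 3.81% and 2.22% of all genes. PMAIP1, PLK3 and AEN were higher (log2 1.85, 2.17 and 1.02), at adjusted p = 0.215, 0.227 and 0.152 with the line as a random block. TP73, described above, was among the lower ones, and CDKN1A (-0.66) and MDM2 (1.02) were not called. Of 20 genes of the ATF4 list tested, ATF3 and TRIB3 were called, both higher, beside 3.81% of all genes. TRIB3 had 36.9 to 66.5 CPM against 146 to 291 CPM (log2 fold change 1.98, SE 0.275, adjusted p = 0.00606), whereas ATF3 was high in M4, at 84.3 and 58.0 CPM, and at 5.68 and 2.45 CPM in M3 against at most 2.38 CPM on the precursor side. TRIB3 kept its call with the line as a random block and ATF3 did not (adjusted p = 0.0320 and 0.361).

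The other lists had 0 to 2 calls each, beside 6.04% of all genes. Of 30 proliferation genes edgeR called 0, DESeq2 1 and an unadjusted p under 0.05 6, although 27 had a positive value (median 0.63; MKI67 1.12, AURKB 1.07). Of 24 glycolysis and hypoxia genes edgeR called 0, DESeq2 2 and an unadjusted p under 0.05 5 (median 0.10). Of 17 NRF2 and metallothionein genes edgeR called 0, DESeq2 1 and an unadjusted p under 0.05 1 (median 0.17). Among S100 genes 1 of 14 was called (S100A16), among cell junction genes CLDN7 higher and PKP1 lower of 24, among G1 cyclins, inhibitors and E2F genes CCND1 of 18, and among HOX genes HOXA11 and HOXB9 of 21. The calls of PKP1 and HOXB9 ended whichever library was left out, and none of the calls of these 4 lists held with the line as a random block. Of 25 germline genes found, 2 had enough counts to be tested, PRSS21 and TEX14 (0.03).

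**Figure D4:**
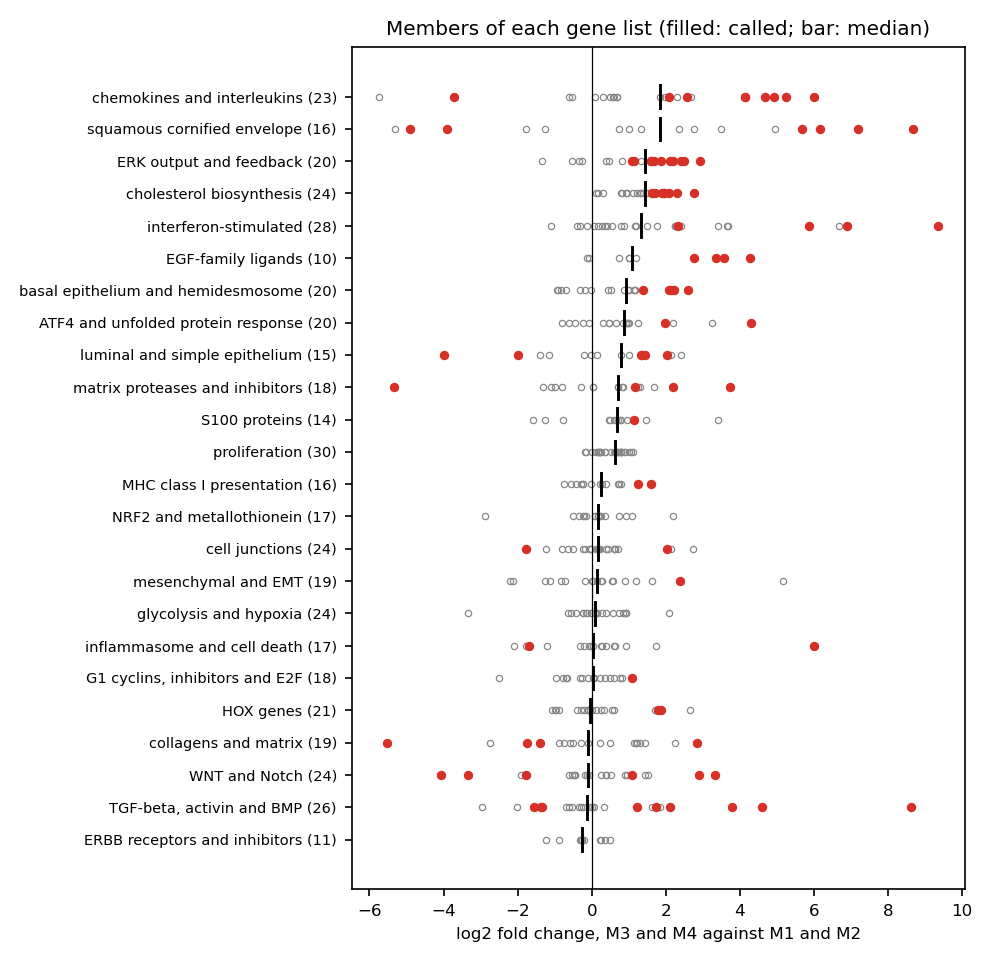
Each row is a gene list with the number of its genes tested, each circle a gene placed by its log2 fold change between the sides, filled red where called, and the bar is the median. The lists of chemokines, squamous genes, ERK output and cholesterol synthesis have medians of 1.43 to 1.85; all 24 cholesterol genes lie right of 0, and the filled circles of the WNT, TGF-beta and luminal lists lie on both sides.

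Within each side the 1000 genes were not flat. They were picked by the difference between the sides in these same libraries, which can favour genes in which the more distant line lies further out. Over all genes tested, M4 was called against M1 in 3602 and against M2 in 2451, and M3 in 2399 and 760. M4 lay above M3 in 414 of the 628 higher genes (65.9%) and below it in 250 of the 372 lower genes (67.2%), with median differences of 0.35 and -0.35 on the log2 scale. Of the higher genes 105 were called in that direction between M4 and M3 and 22 in the other, and of the lower genes 35 and 6, beside 10.6% of all genes called between these lines (4.19% higher and 6.4% lower in M4). By the labels M2 lay above M1 in 418 of the higher genes (66.6%) and below it in 290 of the lower ones (78.0%), and 51 and 23 were called in that direction, beside 3.66% of all genes called between them (2.43% higher and 1.23% lower in M2). With the 2 libraries exchanged the shares were 47.1% and 42.7% and no gene was called between M2 and M1, so these shares depend on the assignment. On the first principal component the libraries labelled M2 lay at -49.5 and -48.8, next to each other, and those labelled M1 at -68.9 and -84.5. The pooled comparison does not depend on it.

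The separating genes were unevenly spread over the genome. On the long arm of chromosome 3, 197 of 475 tested genes (41.5%) separated in the higher direction, beside 11.2% over all genes, and 14 (2.95%) in the lower. The median log2 fold change was 0.57 on this arm and 0.02 on the short arm, where 13.1% separated in the higher direction. M3 and M4 had similar medians on the long arm (0.54 and 0.58 above M1, 0.51 and 0.58 above M2), and M2 did not differ from M1 by its median (-0.00081). In bins of 20 Mb the shares were 8.42% to 10.8% up to 60 Mb and 34.2% to 53.8% from there to the end. The gap in the assembly that parts the arms starts at 90504855, so the higher shares began inside the short arm. In the bin from 60 to 80 Mb, on the short arm, 13 of 38 tested genes separated in the higher direction, with a median of 0.40. Genes both called and separating made up 12% of the arm in the higher direction, beside 3.72% of all genes. In the lower direction they made up 1.47%, beside 2.21%. The arm was chosen after its values were seen. DNA copy number was not measured here, so its part was not tested.

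The longest runs of neighbouring tested genes that separate in the same direction lay on that arm. One, from 128598439 to 129035129, held 9 genes (ACAD9, CFAP92, RAB43, ISY1-RAB43, ISY1, CNBP, COPG1, HMCES and H1-10). CNBP, a zinc finger protein that binds nucleic acids, had 334 and 334 CPM in M1 and 327 and 333 CPM in M2, and 498 and 495 CPM in M3 and 395 and 409.5 CPM in M4, a log2 difference of 0.44 without a call. The other 8 were at 0.52 to 8.43, with RAB43 and CFAP92 called; RAB43, ISY1 and their readthrough gene share reads, and CFAP92 had 0 counts in all precursor libraries and less than 1 CPM elsewhere. The next, from 110788918 to 111849851, held 7 genes, of which 5 were called. In it PHLDB2, a protein that links the cell cortex to microtubules, had 24.8 and 16 CPM in M1 and 34.5 and 35.6 CPM in M2, and 95.3 and 94.6 CPM in M3 and 121 and 107 CPM in M4 (log2 fold change 1.91, SE 0.25, adjusted p = 0.00517).

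One run of 6 genes on chromosome 2 (113399409 to 113594393) ended with CKAP2L, IL1A and IL1B. In the lower direction the longest runs held 5 genes; there were 5 of them, among these 1 each on chromosomes X, 16 and 17. The run on chromosome 16 (53735604 to 55364668) held FTO, CRNDE and the homeobox genes IRX3, IRX5 and IRX6. IRX3 had 119 and 94.6 CPM in M1 and 83.3 and 87.1 CPM in M2, and 21.6 and 32.5 CPM in M3 and 7.43 and 9.68 CPM in M4 (log2 fold change -2.43, SE 0.443, adjusted p = 0.0156), and the other 4 genes of the run were not called.

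Chromosome 19 had the opposite lean. On its long arm 144 of 597 genes (24.1%) separated in the lower direction, beside 9.51% over all genes, and the median was -0.40. Of 171 ZNF genes tested on chromosome 19, 58 (33.9%) separated in the lower and 4 (2.34%) in the higher direction, with a median of -0.42. Other genes of the chromosome had 15.1% in the lower direction, and 223 ZNF genes elsewhere 11.7%. M3 and M4 were each below both M1 and M2 for the chromosome 19 ZNF genes, with median differences of -0.48 to -0.34. Of these 171 genes 10 (5.85%) were called and separating lower and 1 (0.585%) higher, beside 2.21% and 3.72% of all genes. ZNF606, ZNF44 and ZNF799 were among the 10. Arms 1q and 2p had 19.1% and 17.6% separating in the higher direction, where M3 was above M1 by medians of 0.39 and 0.44 and M4 differed from M1 by medians of 0.0069 and -0.0008. Arm 10p had 17.8%, and there M4 was above M1 by a median of 0.38, M3 by 0.098 and M2 by 0.199. These genes were chosen after their values were seen.

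**Figure D5:**
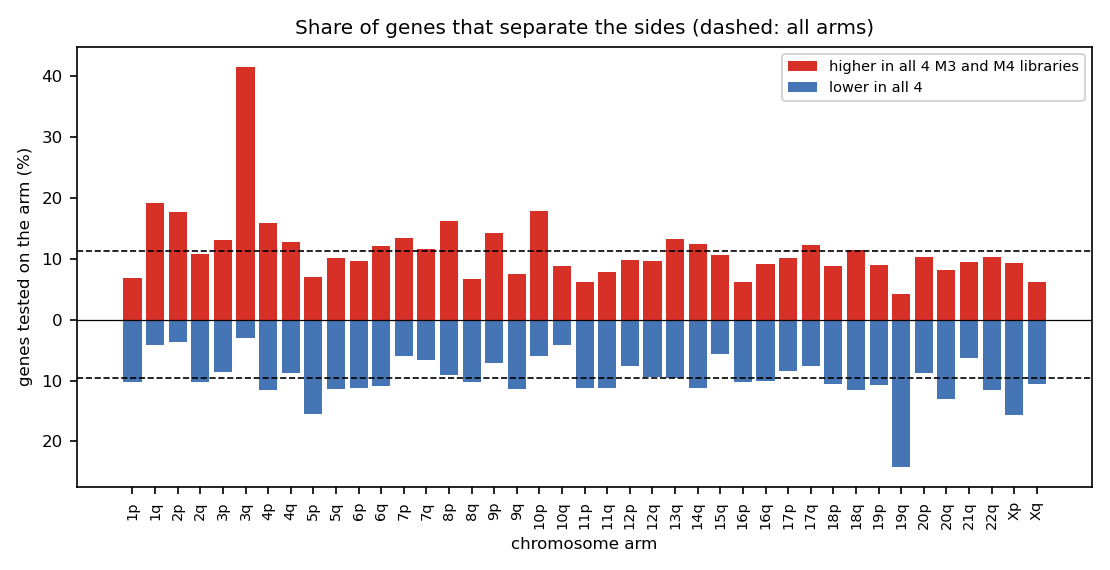
For each chromosome arm (p short, q long) the red bar gives the share of tested genes that were higher in all 4 carcinoma libraries than in all 4 precursor libraries. The blue bar, drawn downward, gives the share lower in all 4. The dashed lines are the shares over 16261 genes with a listed position, 11.3% and 9.61%. Arm 3q stands at 41.5% in the higher direction and 19q at 24.1% in the lower.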

How the data were processed

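Poly A+ RNA of M1 to M4 acini, 2 libraries a line, was sequenced in pairs. After trimming (Trimmomatic) and alignment to hg19 (STAR), the authors deposited expected counts per gene from RSEM on GENCODE v19; Picard gave their mapping statistics. Tool versions and the use of strand are not given in the sources used here. The deposited expected counts carry no normalization. As 12.8% were not whole, all were rounded before testing. GENCODE release 44 on GRCh37 supplied classes and positions of genes and listed 94.7% of the genes with a count. Genes it did not list were counted as not protein coding. Lines were assigned by the sample titles, and the sides by line.

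The main test was the robust quasi-likelihood F test of edgeR (version 4.0.16, R version 4.3.3) on all 8 libraries with 1 coefficient per side, after filterByExpr and TMM scaling, with Benjamini-Hochberg adjustment over 16864 genes; an SE is the absolute log2 fold change over the square root of F. Values per library are CPM with TMM scaling. Counting intervals are exact, at 95%, and with the floor of 3 counts cover counting error only. Nothing but the term biological replicate says how the 2 cultures of a line were kept apart, so their spread may be partly technical. Deviations of same-numbered replicates correlated by -0.029 to 0.030 between lines, except for M3 and M4, where the correlation was 0.139. The main test did not use the numbers to pair the samples. Alternatives were DESeq2 1.42.0 and its size factors, 2 other filters, other thresholds, the line as a fixed term or (limma 3.58.1) as a random block, a replicate block, and leaving out each library or line; the exchange of 2 libraries and leaving out chromosome 3 or 19 were chosen after seeing the data. Scripts were tested on simulated data. Other steps ran in Python 3.11.15 (numpy 2.4.6, pandas 2.3.3, matplotlib 3.10.9, scipy 1.17.1).

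The genes and the 26 gene lists were chosen with earlier results of these data known. Named are the 12 called, separating genes with the largest change in each direction and at least 100 counts in each library of the higher side, the 5 with the highest mean CPM, the 4 with the smallest p, the 4 largest that are not protein coding, up to 4 or more called members of each list, HRAS, EGFR, the 2 genes nearest to the limit of separation on either side of it, and the longest runs of neighbours; some of these genes are not reported here.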

Additional observations from a re-analysis of the deposited data

Results flagged for a closer look

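For each of 141 genes chosen for description, the 4 libraries of each side were checked for a single library far from the other 3 (Dixon's test at its 95% limit), and 28 of 279 sets of 4 with any spread had one. Chance gives about 1 in 20, and each set of 4 holds 2 lines. M1 replicate 1 stood highest on the precursor side for MAOA (825 CPM, others 111 to 232 CPM), KRT10 (838 CPM, others 43.5 to 96.9 CPM), TENT5B (122 CPM, others 23.4 to 33.7 CPM) and ENSG00000260581 (9.21 CPM, others 1.69 to 2.0 CPM). The same held at low levels for SERPINB2 (1.19 CPM, others 0.134 to 0.184 CPM), ENSG00000234477 on chromosome 17 (0.63 CPM, others 0.128 to 0.184 CPM), ZFPM2-AS1 (0.46 CPM, others 0.0142 to 0.0366 CPM) and ZNF605 (0.0969 CPM, others 0). It stood lowest for EPCAM (50.02 CPM, others 70.1 to 72.6 CPM) and FST (0.351 CPM, others 2.17 to 2.50 CPM).

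M1 replicate 2 stood highest for RAB43 (19.9 CPM, others 12.7 to 13.2 CPM), TRMT61A-DT (11.6 CPM, others 1.86 to 3.25 CPM), FAAH2, a fatty acid amide hydrolase (11.1 CPM, others 4.56 to 5.08 CPM), ZNF606 (2.99 CPM, others 1.88 to 1.96 CPM) and BST2 (1.96 CPM, others 0.641 to 0.694 CPM), and lowest for HOXB9 (0.0732 CPM, others 0.262 to 0.298 CPM). M2 replicate 1 had the only precursor counts of ZNF32 (0.0388 CPM) and the lowest precursor value of CNBP (327 CPM, others 333 to 334 CPM). M2 replicate 2 had the highest precursor value of SPRR2A (0.227 CPM, others 0.0122 to 0.0486 CPM) and the only precursor count of RSAD2 (0.0142 CPM).

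On the carcinoma side M4 replicate 1 stood highest for FST (135 CPM, others 9.28 to 18.8 CPM), SPRR2A (36.3 CPM, others 2.45 to 3.15 CPM), LCE3D (24.6 CPM, others 1.66 to 4.24 CPM), SPRR2E (19.6 CPM, others 0.127 to 2.04 CPM), RSAD2 (10.8 CPM, others 0.127 to 0.45 CPM) and PLCXD2 (3.17 CPM, others 1.19 to 1.5 CPM). M3 replicate 1 stood highest for MAOA (5.63 CPM, others 1.18 to 1.20 CPM) and had the only carcinoma counts of DAPL1 (0.0876 CPM). Each of these genes separated the sides with all 8 libraries in.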

How the results depend on the processing

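No called gene changed sign under any alternative, but the number of calls did. Of 1018 calls (643 higher and 375 lower), DESeq2's size factors gave 1015, no filter on low counts 892 and a filter of 100 counts 846. DESeq2 called 1771 genes (1033 and 738). With 1 coefficient per line 2352 were called (1200 and 1152), and with the 2 libraries of M1 and M2 exchanged 1667 (842 and 825). The line as a random block gave 154 (104 and 50), and a log2 fold change above 2 gave 498 (302 and 196). The replicate block gave 649 (419 and 230). Same-numbered replicates deviated together only slightly, and only between M3 and M4. Leaving out 1 library gave 467 to 1219 calls (307 to 720 higher and 159 to 499 lower). The fewest came without M1 replicate 2, and fewer than 1018 divided by 1.5 also without M1 replicate 1, either M2 or either M4 library. Without line M1 252 were called (162 and 90), without M2 1020, without M3 2504 (1207 and 1297) and without M4 611 (427 and 184). The cause was not tested. Separating genes (1887 higher, 1604 lower) numbered 246 and 178 where a gap above 2-fold was asked for, and 2048 to 2584 and 1770 to 2540 without 1 library, where fewer libraries have to separate. Between M2 and M1, 617 genes were called by the labels and 0 with the 2 libraries exchanged; between M4 and M3 1786 were. Counting error limits values under about 10 counts, and 2 lines a side limit what can be said of line types.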
